A study of Mus musculus with 4 samples.

Results

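Neurons that leave their place of birth and grow an axon depend on microtubules, and 10 genes of this system were followed here: *Dcx*, *Dclk1* and *Pafah1b1*, the tubulin genes *Tubb3*, *Tubb2b* and *Tuba1a*, the microtubule-associated protein genes *Map1b*, *Map2* and *Mapt*, and the stathmin gene *Stmn2*. They were chosen by name and found through their Ensembl identifiers in GENCODE release M21, and all 10 were among the 55573 genes counted and among the 16832 that passed the expression filter. RNA came from tdTomato-positive cells that were sorted from the basal telencephalon of mouse embryos at E16, with the day of insemination counted as E1, and that the study describes as interneurons of the preoptic area (POA). All embryos carried *Hmx3-Cre* and the tdTomato reporter, *Dnmt1* WT embryos had intact *Dnmt1* alleles, and *Dnmt1* KO embryos carried the *Dnmt1* loxP2 allele, in which Cre removes exons 4 and 5 and leaves a null allele in cells that expressed *Hmx3*. Cells were pooled from 12 WT and 6 KO embryos, and 2 libraries per genotype were sequenced. The design text of the series calls these libraries biological replicates and the paper calls them technical duplicates of pooled samples, so that SDs and p-values refer to libraries and may not cover the variation among embryos.

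Microtubules are hollow polymers of alpha- and beta-tubulin, and in a migrating interneuron they form the cage around the nucleus and the tracks of the leading process. Doublecortin (DCX) and its relative DCLK1 stiffen and bundle them, LIS1, the product of *Pafah1b1*, binds the motor dynein that pulls the nucleus forward, MAP1B, MAP2 and tau (*Mapt*) line the lattice in axons and dendrites, and stathmins release tubulin from the polymer ends. Mutations in *DCX*, *PAFAH1B1* and the tubulin genes *TUBA1A*, *TUBB2B* and *TUBB3* cause disorders of neuronal migration or axon guidance in humans, and several of the proteins serve as general markers of young neurons.

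The libraries held between 8075102 and 9995968 counts. The 10 genes together took 1.19% and 1.22% of the WT counts and 0.967% and 0.978% of the KO counts. The targeted gene *Dnmt1* was counted 3103 and 4557 times in the WT libraries and 2383 and 2552 times in the KO libraries. This difference of -0.56 on the log2 scale had a standard error of 0.14 (edgeR adjusted p = 0.0511, both KO libraries below both WT libraries, adjusted p from 0.000297 to 0.566 across 12 alternative fits), and these counts include exons outside the deleted part. Mitochondrial and rRNA genes took 10.3% of the counts in WT 1 and 2.05% to 2.87% elsewhere. The WT libraries stood further apart than the KO libraries, with a median absolute gap of 0.31 on the log2 CPM scale over all tested genes between WT 1 and WT 2 and of 0.19 between KO 1 and KO 2. Levels in CPM are counts per 1000000 library counts, scaled by the trimmed mean of M-values (TMM).

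Reads of near-identical genes limit what a count of a tubulin gene means, and this was measured on the transcript sequences before the levels were compared. Of the 50-base windows in the *Tuba1a* transcripts, 64.3% also occurred in transcripts of a gene elsewhere in the genome, including *Tuba1c* (46.9%), *Tuba1b* (43.4%) and processed pseudogenes. A further gene model, *Gm49450*, lies over 26.2% of the exonic bases of *Tuba1a* on the same strand and had 0 counts in every library. In all, 24.5% of the *Tuba1a* windows occurred in no other gene. For *Tubb2b* this share was 63.1%, with *Tubb2a* holding 31.3% of its windows. The other 8 members were nearly free of such sharing, with at least 99.05% of windows found in no other gene, and *Tubb3*, *Map1b* and *Mapt* had 100% of theirs to themselves. How reads with several matches were counted, and whether counting used the strand, is not given in the sources used here. Genes on the opposite strand overlapped 0.745% of the exonic bases of *Dclk1* and 0.754% of those of *Map2*, and none of the other members'.

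DNMT1 methylates cytosine in CG dinucleotides, and the CG content of the members' promoters is therefore given beside their levels, without any measure of methylation. RefSeq promoter windows of 300 bases (GRCm38.p6, 250 before to 50 after the start) were at hand for 7 of the 10 members, namely *Dcx*, *Dclk1*, *Pafah1b1*, *Tubb3*, *Tuba1a*, *Map1b* and *Map2*. The windows of *Dcx* held 3 CG and those of *Dclk1* 5 and 6, against a median of 7 in 32851 windows of all genes. *Tuba1a* had 16, *Map1b* 23, *Tubb3* 26, *Pafah1b1* 27 and *Map2* 37, more than 94.4% of all windows. Fewer CG were found in 23.3% of all windows than in those of *Dcx*, and in 38.0% and 43.6% than in the windows of *Dclk1*. *Dcx* and *Dclk1* are shown because they had the lowest and the highest log2 fold change of the members, beside *Tubb3*, the most abundant by exon length, and *Tuba1a*, with CG in capitals and 5′ to 3′ on the strand of the gene.
*Dcx* (chrX:143933170-143933469, minus strand): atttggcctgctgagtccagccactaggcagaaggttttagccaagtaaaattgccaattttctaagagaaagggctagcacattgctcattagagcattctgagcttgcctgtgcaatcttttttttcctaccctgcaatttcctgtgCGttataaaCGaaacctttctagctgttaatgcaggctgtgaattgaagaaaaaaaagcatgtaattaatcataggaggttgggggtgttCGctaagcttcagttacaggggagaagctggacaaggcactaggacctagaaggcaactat
*Dclk1* (chr3:55242114-55242413, plus strand): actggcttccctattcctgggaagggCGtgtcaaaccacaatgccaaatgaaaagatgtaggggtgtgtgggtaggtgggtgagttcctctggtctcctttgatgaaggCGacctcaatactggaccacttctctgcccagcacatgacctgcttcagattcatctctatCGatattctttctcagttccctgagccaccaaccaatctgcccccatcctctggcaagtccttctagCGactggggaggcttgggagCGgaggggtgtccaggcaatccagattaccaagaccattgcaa
*Tubb3* (chr8:123411303-123411602, plus strand): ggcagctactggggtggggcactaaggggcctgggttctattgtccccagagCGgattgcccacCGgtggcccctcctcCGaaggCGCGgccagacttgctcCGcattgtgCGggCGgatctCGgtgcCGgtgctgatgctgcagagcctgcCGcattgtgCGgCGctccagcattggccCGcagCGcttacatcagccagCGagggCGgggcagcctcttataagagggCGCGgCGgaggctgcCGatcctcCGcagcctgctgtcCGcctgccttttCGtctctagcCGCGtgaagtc
*Tuba1a* (chr15:98953452-98953751, minus strand): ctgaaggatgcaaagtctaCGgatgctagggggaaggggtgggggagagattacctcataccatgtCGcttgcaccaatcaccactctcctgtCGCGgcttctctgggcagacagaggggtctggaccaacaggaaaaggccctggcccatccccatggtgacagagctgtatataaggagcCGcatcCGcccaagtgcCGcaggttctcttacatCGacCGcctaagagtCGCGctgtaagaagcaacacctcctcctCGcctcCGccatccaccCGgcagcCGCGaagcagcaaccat
On both strands, TATAAA was found in the windows of *Dcx* and *Map1b* and in 13.6% of all windows. The motif CCAAT was found in those of *Dcx*, *Tubb3* and *Tuba1a* and in the first *Dclk1* window, and in 37.4% of all windows. The E-box CANNTG was found in those of *Dclk1*, *Tuba1a* and *Map1b* and in 72.3% of all windows. A match of letters is no evidence of a bound site, and no motif among these was present in every member with a window.

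In these sorted cells the members ranged widely in level but all were among the abundant messages. Levels between genes were compared as CPM per kilobase of merged exon length (RPKM). *Tubb3*, the beta-tubulin found almost only in neurons, stood highest with 760 and 1004 RPKM in WT and 628 and 645 RPKM in KO. *Tuba1a*, the main alpha-tubulin of young neurons, followed with 553 and 392 RPKM in WT and 284 and 298 RPKM in KO, and *Tubb2b* with 289 and 377 RPKM in WT and 272 and 289 RPKM in KO. Neighbours in this order whose means differed by less than the sum of their SDs were *Tuba1a* and *Tubb2b* and also *Mapt* and *Map2* in both genotypes. In WT this held as well for each step from *Stmn2* down to *Dcx*, *Pafah1b1* and *Dclk1*, and in KO for *Pafah1b1* and *Dcx*. The lattice proteins lay below the tubulins, with a WT mean of 238 ± 20.3 RPKM (SD, n = 2) for *Map1b*, 135 ± 6.34 RPKM (SD, n = 2) for *Mapt* and 130 ± 20.3 RPKM (SD, n = 2) for *Map2*. *Dclk1* was the lowest in WT with 43.1 ± 3.21 RPKM (SD, n = 2), which still exceeded 95.8% of all tested genes. In KO the order of the first 7 members was that of WT, whereas *Dcx* moved to the last place with 36.7 ± 2.48 RPKM (SD, n = 2) and *Dclk1* to the eighth with 46.3 ± 1.23 RPKM (SD, n = 2).

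**Figure D1:**
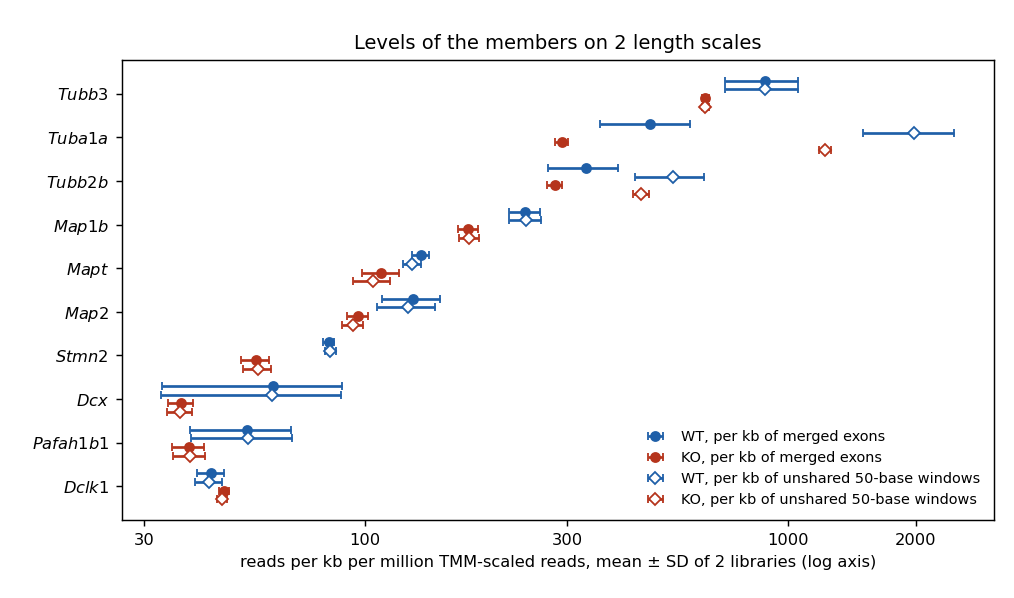
Mean level of each member in WT (blue) and KO (red) on a log axis, in TMM-scaled CPM per kilobase, with bars for the SD of 2 libraries. Filled circles divide by merged exon length and open diamonds by the number of 50-base windows found in no other gene, which lifts *Tuba1a* in WT from 472 to 1985 and leaves the 8 members other than *Tuba1a* and *Tubb2b* nearly in place.

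The place of *Tuba1a* in this order rests on the length used. When counts were divided by the windows that no other gene holds, in place of the merged exons, *Tuba1a* stood above *Tubb3*, with 2324 and 1646 CPM per kilobase in WT and 1194 and 1252 in KO. On the same scale *Tubb3* had 761 and 1005 in WT, and *Tubb2b* had 463 and 603. This scale was chosen after the counts were seen. It fits counts from which reads with several matches were left out, and whether they were is not known here. *Tuba1b*, an alpha-tubulin used by most cells, was counted 101, 133, 111 and 104 times in WT 1, WT 2, KO 1 and KO 2, and 24.9% of its windows were found in no other gene.

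**Figure D2:**
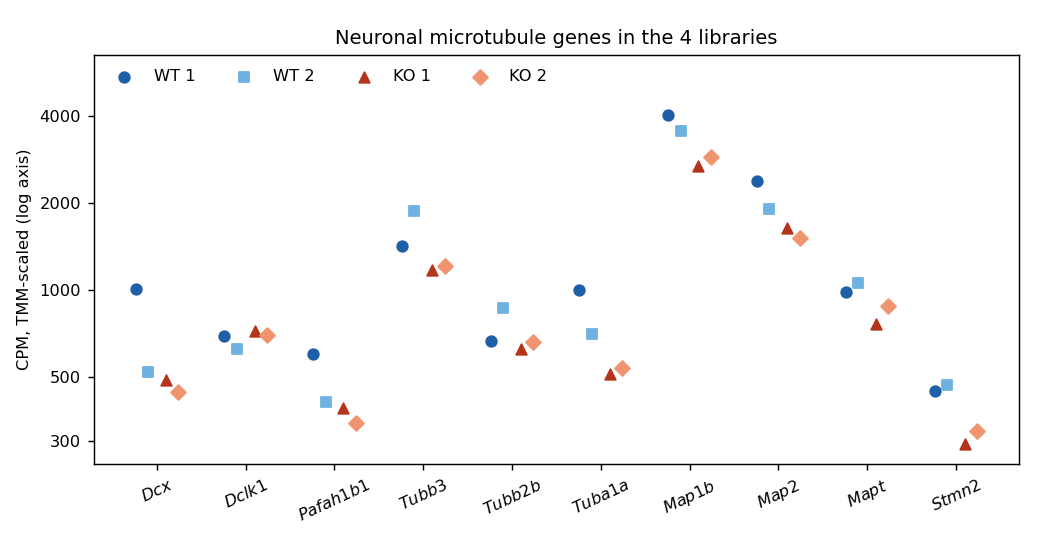
CPM of the 10 members in each library on a log axis, with circles and squares for the WT libraries and triangles and diamonds for the KO libraries. In 9 members both KO libraries lie below both WT libraries, *Dclk1* has the opposite order, and the WT libraries of *Dcx* stand far apart at 1011 and 521 CPM.

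The comparison of genotypes asked whether the loss of *Dnmt1* went with a change in these genes. *Stmn2* was the only member to pass the edgeR test and decreased by 32.7% in KO, while *Tuba1a* and *Dcx* had the larger estimated decreases without passing it. Of the 10 members, 1 was lower and 0 were higher at an edgeR adjusted p under 0.05, against 0.570% lower and 7.33% higher among all 16832 genes tested. DESeq2 called 5 members lower, against 0.813% lower and 3.80% higher of the 30006 genes it tested. With limma-voom 3 members were lower, against 0.594% lower and 7.21% higher of all tested genes. *Stmn2* and *Tuba1a* were among the lower members with both methods, and 0 members were higher with either. At an unadjusted p under 0.05 in edgeR, 7 of 10 were lower and 0 higher, a level reached in either direction by 22.7% of all tested genes. This 7 was 2 without KO 1, 3 without KO 2 and 3 with library size only. In 9 of 10 members each KO library was lower than each WT library, compared with 25.2% of all tested genes, and in 1 each was higher, compared with 28.3%. With TMM the median log2 fold change of the members was -0.45, and that of all tested genes was -0.03. In bulk RNA, fewer neurons in a pool and less RNA of a gene per neuron cannot be told apart.

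*Dcx*, on chromosome X of GRCm38 from 143855842 to 143933311, encodes the doublecortin that marks migrating neurons, and its promoter windows were the poorest in CG of the 7 known. The WT libraries held 8142 and 5313 of its reads and the KO libraries 4091 and 4014, or 1011, 521, 486 and 442 CPM in WT 1, WT 2, KO 1 and KO 2. WT 1 was nearly double WT 2, which was close to KO 1. Its log2 fold change of -0.72 was the lowest of the members (standard error 0.27, 95% interval -1.35 to -0.09) and did not pass the test (edgeR adjusted p = 0.169, from 0.000136 to 0.468 across 12 alternative fits). Without WT 1 it was -0.17, without WT 2 -1.13, and after the dependence of each library on transcript length and GC was removed it was -0.40 (adjusted p = 0.0715). Of the 12 alternatives 3 called *Dcx* lower, namely without a filter, with the replicate number as a block, and with that block and the correction together.

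*Dclk1*, on chromosome 3 from 55242364 to 55539068, encodes the doublecortin-like kinase that overlaps DCX in function, and it was the member whose estimate was not negative. It had 695 and 625 CPM in WT and 722 and 696 CPM in KO, and KO 2 exceeded WT 1 by about 1 CPM. The log2 fold change of *Dclk1* was 0.10 (standard error 0.14, 95% interval -0.22 to 0.42, edgeR adjusted p = 0.704), so that a decrease larger than 0.22 or an increase larger than 0.42 on the log2 scale lay outside the interval. Without WT 1 it was 0.17, without WT 2 0.02, and with the length and GC correction 0.26 (adjusted p = 0.103). Within each library, where scaling plays no part, *Dclk1* had 0.687 and 1.20 times the counts of *Dcx* in WT and 1.48 and 1.57 times in KO. Both KO libraries thus had the higher ratio, while the WT libraries differed more from each other than WT 2 did from either KO library. With 2 libraries against 2, an exact two-sided permutation test cannot go below p = 0.333, and no such ratio was tested.

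*Pafah1b1*, on chromosome 11 from 74673949 to 74724670, encodes LIS1. It had 602 and 410 CPM in WT and 391 and 346 CPM in KO. As for *Dcx*, WT 1 stood apart and WT 2 lay near KO 1. The log2 fold change was -0.46 (standard error 0.20, 95% interval -0.91 to -0.01, edgeR adjusted p = 0.214), and with the length and GC correction it was -0.17 (adjusted p = 0.275, from 0.0548 to 0.961 across the 12 alternative fits). Without WT 1 it was -0.16 and without WT 2 -0.72. Its ratio to *Dcx* was 0.595 and 0.788 in WT and 0.804 and 0.783 in KO, and the groups overlapped.

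Among the tubulins, *Tuba1a*, on chromosome 15 from 98949837 to 98953703, came closest to the threshold. It had 997 and 706 CPM in WT and 512 and 537 CPM in KO, and both KO libraries were below WT 2, although the WT libraries themselves stood farther apart than WT 2 and KO 2. The log2 fold change of *Tuba1a* was -0.70 (standard error 0.18, 95% interval -1.12 to -0.28, edgeR adjusted p = 0.0594), and 8 of the 12 alternatives called it lower (adjusted p between 3.98e-05 and 0.307). With *Tuba1b* and *Tuba1c* added to its counts, an alternative chosen after the data were seen, the log2 fold change was -0.68 (adjusted p = 0.0642). Without WT 1 the value for *Tuba1a* was -0.44 and without WT 2 -0.94.

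*Tubb3*, on chromosome 8 from 123411424 to 123422015, had 1420 and 1876 CPM in WT and 1174 and 1204 CPM in KO. Here WT 2 was the higher of the WT libraries, the reverse of *Dcx*, *Pafah1b1* and *Tuba1a*. The log2 fold change was -0.47 (standard error 0.17, 95% interval -0.86 to -0.08, edgeR adjusted p = 0.145, from 0.00144 to 0.892 across the 12 alternative fits). It passed with DESeq2, without a filter and in both fits with the length and GC correction. Without WT 1 it was -0.67 and without WT 2 -0.27. *Tubb2b*, a beta-tubulin of embryonic brain on chromosome 13 from 34126748 to 34130466, had 663 and 864 CPM in WT and 624 and 662 CPM in KO, and KO 2 was just under WT 1. Its log2 fold change was -0.25 (standard error 0.17, 95% interval -0.63 to 0.13, edgeR adjusted p = 0.414, from 0.0249 to 0.758 across the 12 alternative fits), and -0.23 when *Tubb2a* was added (adjusted p = 0.411), and without WT 1 and without WT 2 the value was -0.43 and -0.06. *Tubb2b* had 0.467 and 0.461 times the counts of *Tubb3* in WT and 0.532 and 0.550 times in KO, a ratio that was higher in both KO libraries and whose 2 libraries lay close together in each genotype. The ratio of *Tuba1a* to *Tubb3*, 0.702 and 0.376 in WT against 0.436 and 0.446 in KO, overlapped between the groups, with WT 1 alone apart.

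*Map1b*, on chromosome 13 from 99421446 to 99516540, encodes an early axonal protein and had the most counts of the members. The WT libraries held 32274 and 36252 and the KO libraries 22493 and 26175, or 4006, 3552, 2674 and 2883 CPM. The groups were separated by more than either gap, and the log2 fold change was -0.44 (standard error 0.14, 95% interval -0.78 to -0.11, edgeR adjusted p = 0.115, from 0.0158 to 0.973 across the 12 alternative fits). *Map2*, on chromosome 1 from 66175273 to 66442583, encodes the protein of dendrites and cell bodies. It had 2371 and 1900 CPM in WT and 1640 and 1514 CPM in KO, a log2 fold change of -0.44 (standard error 0.16, 95% interval -0.80 to -0.07, edgeR adjusted p = 0.153). With the length and GC correction the value for *Map2* was -0.24 (adjusted p = 0.107, from 0.0311 to 0.992 across the 12 alternative fits), and without WT 1 it was -0.28. *Mapt*, on chromosome 11 from 104231390 to 104332090, encodes the axonal protein tau. It had 985 and 1053 CPM in WT and 763 and 879 CPM in KO, a log2 fold change of -0.31 (standard error 0.15, 95% interval -0.65 to 0.02, edgeR adjusted p = 0.249, from 0.0484 to 0.600 across the 12 alternative fits), and without KO 1 it was -0.20. *Map2* had 0.592 and 0.535 times the counts of *Map1b* in WT and 0.613 and 0.525 times in KO, and *Mapt* had 0.246 and 0.296 times in WT and 0.286 and 0.305 times in KO. Both ratios overlapped between the genotypes.

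*Stmn2*, on chromosome 3 from 8509360 to 8561606, encodes a stathmin of growth cones. It was counted 3617 and 4786 times in WT, and 2458 and 2957 times in KO, or 449, 469, 292 and 326 CPM, and its WT libraries were the closest of all members on the log2 scale. *Stmn2* fell by 0.57 on the log2 scale (standard error 0.14, 95% interval -0.89 to -0.25, edgeR adjusted p = 0.0425, both KO libraries below both WT libraries). It was called lower in 7 of the 12 alternatives (adjusted p between 0.0025 and 0.494), and it passed without either WT library. With the length and GC correction it was -0.42 and was not called (adjusted p = 0.0555), while *Tubb3*, *Tubb2b*, *Tuba1a*, *Map1b* and *Mapt* were, and with upper quartile scaling *Tuba1a* was called in its place. When KO 1 or KO 2 was left out it was -0.48 and -0.65 and did not pass (adjusted p = 0.520 and 0.334). *Stmn1*, the stathmin of dividing and young cells, was counted 594 and 908 times in WT, and 483 and 524 times in KO (log2 fold change -0.50, standard error 0.16, edgeR adjusted p = 0.102, from 0.00205 to 0.796 across the 12 alternative fits). The counts of *Stmn2* were 6.09 and 5.27 times those of *Stmn1* in WT and 5.09 and 5.64 times in KO, and the groups overlapped.

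**Figure D3:**
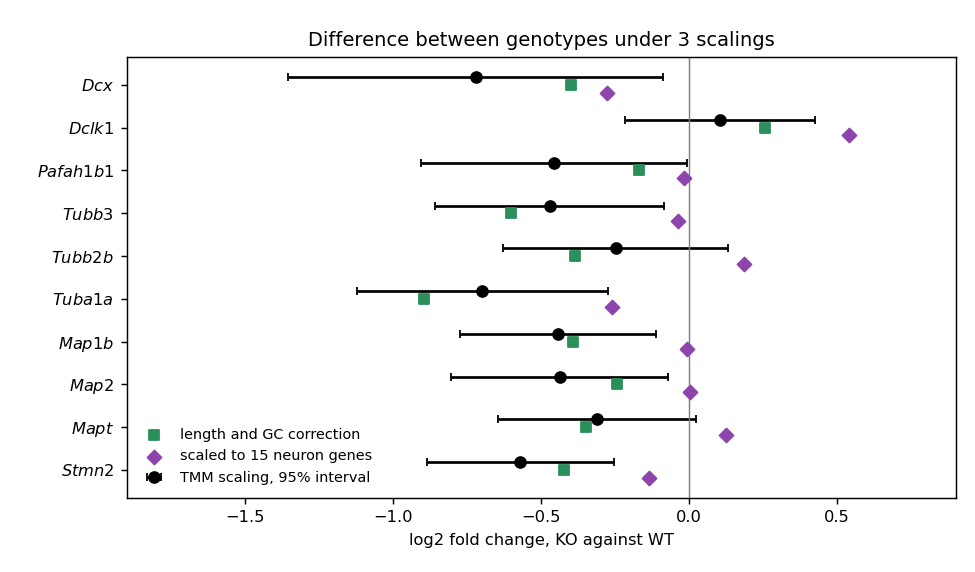
Log2 fold change of each member, KO against WT, with TMM scaling (black, bars for the 95% interval), after removal of length and GC trends (green) and with scaling to 15 neuron genes (purple). *Dclk1* is to the right of the other members under each scaling, and scaling to the neuron genes moves the median of the members from -0.45 to -0.01.

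The size of the decrease depended on what the members were set against. A list of 15 genes carried by neurons in general, with no member in it, summed to 3884 and 3805 CPM in WT and 2783 and 2900 CPM in KO. Of these 15 genes 2 were lower (*Elavl4* and *Syt1*, edgeR adjusted p = 0.0258 and 0.0150) and 1 was higher (*Thy1*, edgeR adjusted p = 0.0296), against 0.570% and 7.33% of all tested genes. Their median log2 fold change was -0.39. The lower ones numbered 5 with DESeq2, 6 with the replicate number as a block and 8 with the length and GC correction. Of all tested genes 0.813%, 3.68% and 5.82% were lower in these fits. The summed counts of the 10 members were 3.40 and 3.15 times those of the 15 neuron genes in WT and 3.33 and 3.27 times in KO, so that the KO ratios lay between the WT ratios. With the libraries scaled to the neuron genes, which moved the median of all tested genes from -0.03 to 0.41, 0 of the 10 members were lower by edgeR, also at an unadjusted p under 0.05. That shift was common to all genes, and with it *Tubb2b*, *Map2* and *Mapt* changed sign by construction, to 0.19, 0.002 and 0.12. *Dcx* and *Tuba1a* were at -0.28 and -0.26 on that scale. *Dclk1* was the member that passed, at 0.54 (adjusted p = 0.0260, from 0.0260 to 0.869 across the 12 alternative fits), where 20.9% of all tested genes passed as higher and 0.190% as lower, so that 1 of 10 is below the share of all genes. Relative to the median of all genes, *Dclk1* was 0.13 higher with TMM and with the neuron genes, 0.27 higher with the length and GC correction, 0.07 higher with DESeq2 and 0.01 higher without WT 2.

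**Figure D4:**
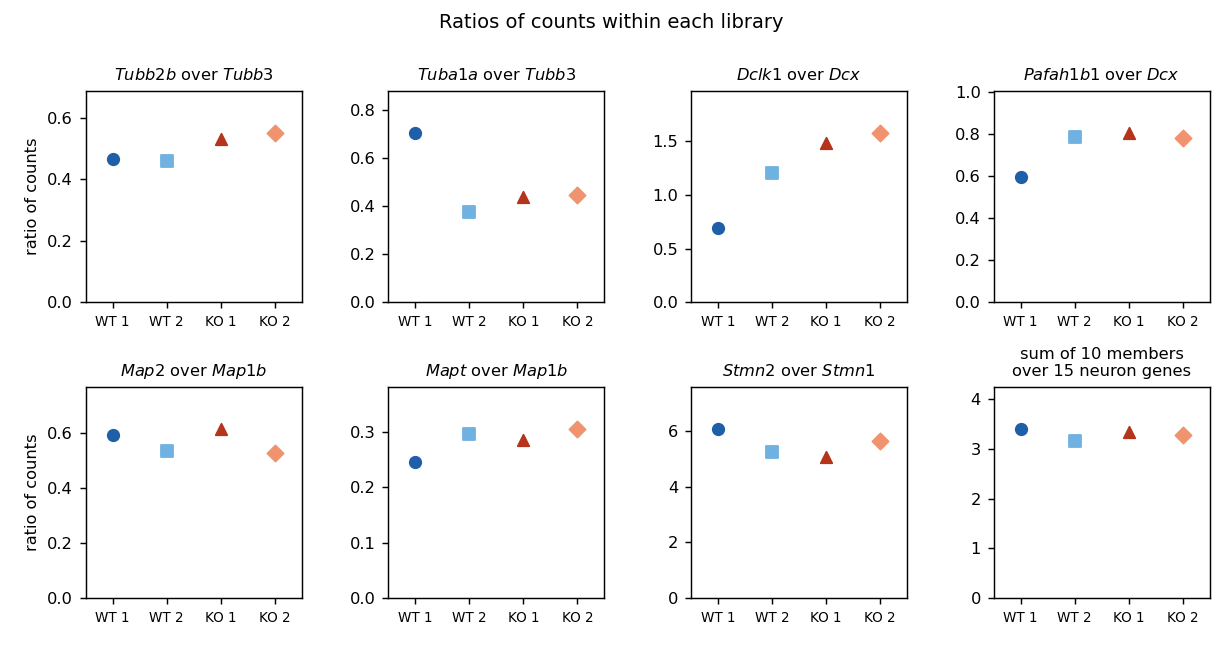
Ratios of counts within each library, which no scaling between libraries can alter, on axes that start at 0. The ratios of *Tubb2b* to *Tubb3* and of *Dclk1* to *Dcx* are higher in both KO libraries than in both WT libraries, and the other 6 ratios overlap, including the sum of the members over the 15 neuron genes.

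Marker genes of other cells moved with the genotype. The summed level of 12 astrocyte markers was 281 and 267 CPM in WT and 4568 and 4336 CPM in KO, with 12 of 12 higher at an edgeR adjusted p under 0.05 and *Gfap* at 0 counts in both WT libraries. The sums were 212 and 244 against 751 and 743 CPM for 11 oligodendrocyte markers (8 higher, *Opalin* at 0 in WT), and 53.3 and 60.7 against 379 CPM in both KO libraries for 7 mural cell markers (6 higher, *Acta2* at 0 in WT). These 3 lists were thus higher in both KO libraries, and several of their defining genes were at or near 0 in WT. The 8 microglial markers summed to 31.4 and 37.5 against 62.3 and 71.4 CPM (2 higher, 1 with DESeq2 and 3 with the replicate block). The 5 oligodendrocyte precursor markers summed to 1427 and 1481 against 1788 and 1878 CPM (1 higher, 1 with DESeq2 and 3 with the replicate block). The 8 progenitor and radial glia markers summed to 1060 and 1056 against 1145 and 1115 CPM, with *Hes1* higher (log2 fold change 1.55, edgeR adjusted p = 0.0126). Of these, 5 of 8 were higher in each KO library than in each WT library, compared with 28.3% of all tested genes. *Sox2* was lower in each KO library (log2 fold change -0.29), and *Mki67* and *Top2a* overlapped between the groups (-0.04 and -0.07). Of the genes that define the labelled cells, the GABAergic regulator *Dlx1* had 703, 637, 556 and 603 CPM in WT 1, WT 2, KO 1 and KO 2 and *Hmx3*, whose regulatory sequence drives Cre, had 78.6, 90.0, 71.8 and 93.7 CPM. *Hmx2*, the POA marker with the highest level, had 130, 145, 109 and 106 CPM (log2 fold change -0.36, edgeR adjusted p = 0.189). *Nkx6-2*, also on the POA list, had 1 and 3 counts in the WT libraries, at or under the detection limit of 3. It thus did not mark the labelled WT cells, and it had 49 and 42 counts in the KO libraries (edgeR adjusted p = 0.00321). The 8 GABAergic markers summed to 1432 and 1288 against 1105 and 1204 CPM (0 called by edgeR or DESeq2, 2 at an unadjusted p under 0.05 in edgeR). Of their estimates 7 of 8 were negative, with a median log2 fold change of -0.25. The length and GC correction called 2 of the 8 lower, against 5.82% of all tested genes. The 4 POA markers summed to 268 and 274 against 221 and 245 CPM, with *Nkx6-2* as the only one higher. Glutamatergic markers were present as well, at 409 and 382 against 205 and 231 CPM over 5 genes, of which 2 were lower (3 with DESeq2 and 4 with the replicate block). The 5 choroid plexus markers summed to 46.4 and 60.6 against 4.16 and 5.95 CPM, with *Ttr* lower, and the 6 erythroid markers to 30.7 and 44.7 against 18.9 and 19.2 CPM (1 lower). The 6 endothelial markers summed to 15.9 and 15.8 against 13.7 and 17.7 CPM, with 0 called by edgeR, DESeq2 or limma-voom (3 at an unadjusted p under 0.05 in edgeR, *Ly6c1* at 0 in WT). Of these 3, *Cldn5* and *Kdr* were lower (log2 fold change -1.46 and -0.84) and *Flt1* was higher (1.11). The length and GC correction called 1 endothelial marker higher, against 11.5% of all tested genes. The part of these shifts in the lower levels of the members was not tested.

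The members did not share a single profile across the 4 libraries. Likeness was measured as the root mean square difference of log2 CPM after each gene was centred on its own mean. The closest pair was *Pafah1b1* and *Map2*, with a difference of 0.0849, followed by *Map1b* and *Map2* with 0.0946 and *Stmn2* and *Map1b* with 0.107. *Tubb3* and *Tubb2b* were each other's nearest member at 0.112. *Dclk1* was the farthest from any other, with 0.245 to *Mapt*. The members also split by which WT library was higher. *Dcx*, *Pafah1b1*, *Tuba1a*, *Map2*, *Map1b* and *Dclk1* were higher in WT 1, by 0.96 on the log2 scale for *Dcx* and by 0.15 for *Dclk1*, whereas *Tubb3*, *Tubb2b*, *Mapt* and *Stmn2* were higher in WT 2. The GC content of the transcripts was lowest in *Pafah1b1* (41.6%) and *Dcx* (41.6%), which were higher in WT 1, and highest in *Tubb3* (58.0%), which was higher in WT 2. *Tuba1a* (53.2%), higher in WT 1 by 0.50 on the log2 scale, and *Stmn2* (43.6%), higher in WT 2 by 0.06, lay the other way. The rank correlation of the gap, WT 2 minus WT 1, with GC content was 0.697 across the 10 members and 0.536 across 16828 tested genes, a description across genes that share the same libraries. Between KO 1 and KO 2 it was 0.564 and 0.317.

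**Figure D5:**
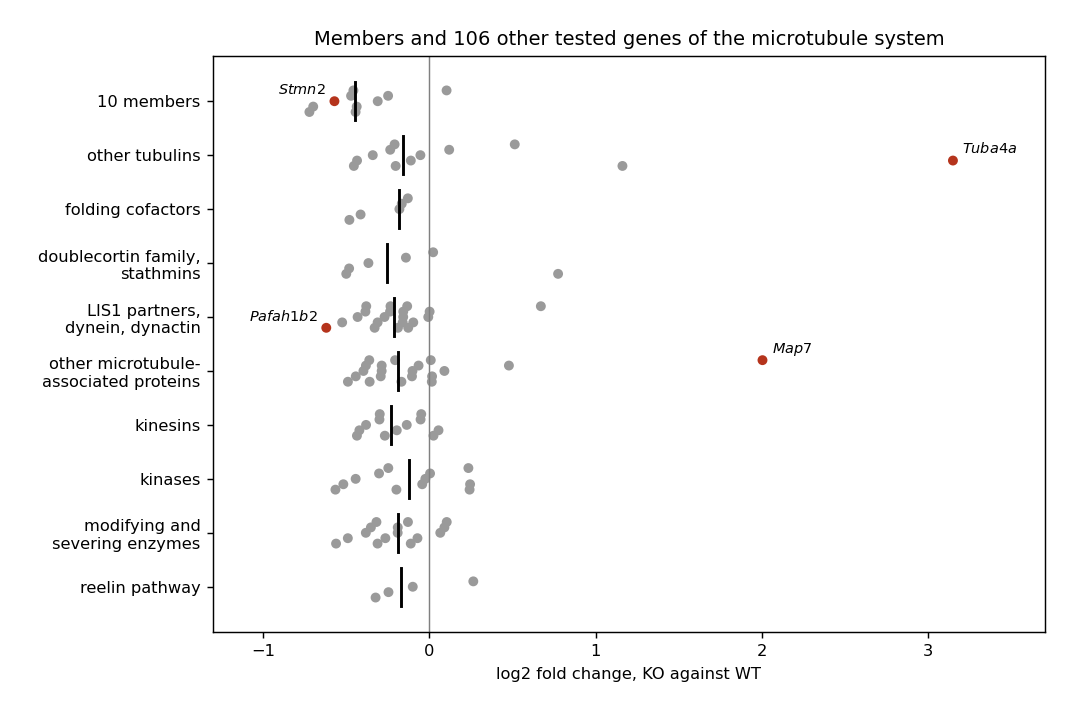
Log2 fold changes, KO against WT, of the 10 members and of 106 other tested genes of the microtubule system by group, with a black line at each group's median and red points for genes with an edgeR adjusted p under 0.05. *Stmn2*, *Pafah1b2*, *Map7* and *Tuba4a* are the called genes, and the median of each group lies below 0 with TMM but above 0 for each group other than the members with scaling to the neuron genes.

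Beyond the members, 107 genes of the microtubule system were looked up in 9 groups, of which 106 were tested. 1 was lower and 2 were higher at an edgeR adjusted p under 0.05, against 0.570% and 7.33% of all tested genes. Of the 106, 82 had a negative log2 fold change, as did 8813 of all 16832, with a median of -0.19 that turned to 0.24 with scaling to the neuron genes (14 higher, 0 lower, against 20.9% and 0.190% of all tested genes). Both higher genes had low counts. *Tuba4a*, an alpha-tubulin of the adult brain and other tissues, was counted 8 and 20 times in WT, and 99 and 138 times in KO, and rose by 3.15 on the log2 scale (standard error 0.40, edgeR adjusted p = 0.0019, up to 0.00534 across 11 alternative fits). *Map7*, which recruits kinesin to microtubules and is also found in epithelial and glial cells, was counted 55 and 46 times in WT, and 186 and 209 times in KO, and rose by 2.00 (standard error 0.28, edgeR adjusted p = 0.00309, up to 0.00335 across 12 alternative fits). Both passed when any of the 4 libraries was left out.

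The lower gene was *Pafah1b2*, which encodes a catalytic subunit of the acetylhydrolase that LIS1 binds. It had 372 and 317 CPM in WT and 240 and 208 CPM in KO (log2 fold change -0.62, standard error 0.15, edgeR adjusted p = 0.0468, from 0.000414 to 0.428 across 12 alternative fits), and without KO 1 or without KO 2 it was -0.71 and -0.51 and did not pass (adjusted p = 0.170 and 0.589). It was 1 of 20 LIS1 partners, dynein and dynactin genes, whose median was -0.21. *Nde1*, a LIS1 partner of dividing cells, lay in the opposite direction with 14.3 and 23.1 CPM in WT and 30.7 and 29.2 CPM in KO (log2 fold change 0.67, edgeR adjusted p = 0.157, from 0.0170 to 0.256 across 12 alternative fits), and its value was 0.36 without WT 1 and 1.06 without WT 2.

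In the other groups 0 genes were called lower by edgeR, while over all 9 groups DESeq2 called 7 lower and limma-voom 1. Scaling to the neuron genes raised the median of all genes from -0.03 to 0.41, and with that common shift each group median given here and the values of *Tubb2a*, *Kif5c* and *Reln* became positive by construction. The 12 tested tubulins outside the members had a median of -0.16, with *Tubb2a* at -0.20 (adjusted p = 0.412) and *Tuba1c* at 1.16 with 16, 24, 32 and 54 counts in WT 1, WT 2, KO 1 and KO 2 (adjusted p = 0.166). The 5 tubulin folding cofactors were all negative (median -0.18), the farthest being *Tbca* at -0.48 (adjusted p = 0.234, and -0.29 without KO 2). The remaining doublecortin family and stathmin genes had a median of -0.25 over 6 genes, and 20 further microtubule-associated proteins one of -0.19. Among 12 kinesins (median -0.23), *Kif5c*, a motor of neurons, was farthest from 0 at -0.44 (adjusted p = 0.106). The 12 kinases had a median of -0.12, with *Mapk8* (JNK1) at -0.56 (adjusted p = 0.125, and -0.31 without WT 1). The 15 modifying and severing enzymes had one of -0.19, with the severing enzyme *Spast* at -0.56 (adjusted p = 0.0875), and the 4 genes of the reelin pathway one of -0.17, with *Reln* at -0.32 (adjusted p = 0.213). Leaving out 1 library moved several of these medians, that of the tubulins to -0.04 without WT 2 and -0.03 without KO 1, that of the cofactors to -0.36 without WT 1 or without KO 1, and that of the kinases to -0.20 without WT 2 and -0.22 without KO 2. The median of the doublecortin family and stathmins was -0.48, -0.14, -0.11 and -0.41 without WT 1, WT 2, KO 1 and KO 2, and that of the reelin pathway was -0.06 without WT 1 and -0.11 without KO 2. At an unadjusted p under 0.05, 27 of the 106 genes differed, against 22.7% of all tested genes. Leaving out 1 library moved this count strongly, and it moved the share of all tested genes that were called as well.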

How the data were processed

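For each library the authors deposited raw counts of reads by Ensembl gene identifier. The submitters' processing notes name CASAVA 1.8.2, STAR 2.5.2a, featureCounts 1.5.0-p1 and mm10 (GRCm38). Annotation release, strand setting and handling of multi-mapping reads are not given in the sources used here, and each can change the counts of tubulin genes. Of 55573 identifiers, 55480 matched GENCODE M21. After edgeR's filter on low counts, libraries were compared with TMM factors and the quasi-likelihood test of edgeR 4.0.16, with genotype as the only term and Benjamini-Hochberg adjustment over all tested genes (limma 3.58.1, DESeq2 1.42.0 and R 4.3.3 were also used). Standard errors were derived from the test statistic. A level of 3 counts, taken as the limit of detection, was 0.294 to 0.372 CPM, which covers counting error only. No library was a second deposit of another, since those of the same genotype differed by more than counting noise (chi-square divided by its degrees of freedom 57.2 in WT and 4.28 in KO), which does not tell technical from biological replicates. The procedures were run on simulated counts as a check of the code. The simulated genotypes shared the dispersion of each gene and held changes larger than those of the members. In the data the biological coefficient of variation was 0.234 in WT and 0.103 in KO, so the simulation does not vouch for the calls made here.

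The genes and lists were chosen with earlier results of these data known. Named genes were the 10 members, *Dnmt1*, partners in ratios, the closest paralogs, the called genes of each group of other microtubule genes and its gene farthest from 0 with at least 10 counts in every library. *Tuba1c* as a paralog, *Gm49450* and the named marker genes were chosen after their values were seen, as were the sums over near-identical tubulins and the levels per unshared window. The alternatives were DESeq2, limma-voom, 3 other scalings (DESeq2's size factors, library size and upper quartile), 2 other filters, the replicate number as a block, offsets that removed length and GC trends with and without the block, omission of mitochondrial and rRNA genes, scaling to 15 neuron genes, other thresholds, and each library left out in turn. A match of promoter letters was searched in RefSeq windows.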

Additional observations from a re-analysis of the deposited data

How the results depend on the processing

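The count of members called lower, 1 by edgeR with TMM, was 5 with DESeq2, 3 with limma-voom, 2 with DESeq2's size factors, 0 with library size only, 6 without a filter, 0 with at least 10 counts in every library, 3 with the replicate block, 5 with the length and GC correction, 5 with that correction and the replicate block together, and 0 with scaling to the neuron genes. It was 2 at an adjusted p under 0.1 and 0 under 0.01. With a library left out it lay between 0 (without KO 1 or without KO 2) and 8 (without WT 2), and it was 7 without WT 1. The share of all tested genes called lower moved as well, from 0.570% to 12.0% without WT 2, 7.15% without WT 1, 0.656% without KO 1, 0.288% without KO 2, 5.82% with the length and GC correction, 7.26% with that correction and the replicate block, 3.68% with the replicate block and 1.91% without a filter. In fits with a library left out, the lone library is assumed to vary like the other genotype. Without a WT library, and in the fit without a filter, the p-values rest on the dispersion trend over all genes alone. Without KO 1 or KO 2 they rest on it almost wholly, as the trend has the weight of 670 and 435 degrees of freedom, against 6.05 in the main fit. The count of members called higher was 0 in each of these settings except scaling to the neuron genes, where *Dclk1* passed. The sign of 7 members held in every setting run. Scaling to the neuron genes raised all genes nearly alike, so that the value with TMM decided which signs reversed. With it *Tubb2b* (0.19), *Map2* (0.0024) and *Mapt* (0.12) changed sign. So did *Tubb2a* (0.23), *Kif5c* (0.0021), *Reln* (0.11) and *Tuba1b* (0.38). *Tuba1b*, at -0.05 with TMM, was also at 0.055 with library size only and ranged from -0.15 to 0.050 with a library left out, the highest without KO 2.

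Over all genes, 96 were lower and 1233 higher of 16832 tested. DESeq2 and the fit without a filter tested 30006 genes. The lower genes numbered 244 with DESeq2, 573 without a filter, 52 with at least 10 counts, 619 with the replicate block, 980 with the length and GC correction, 1222 with the correction and the replicate block together, 318 at an adjusted p under 0.1 and 16 under 0.01, and between 51 and 2180 with a library left out. The higher genes numbered 1935 with the correction, 2104 with the correction and the replicate block together, 724 under 0.01 and between 900 and 2578 with a library left out. With scaling to the neuron genes, 32 were lower and 3520 higher. With library size only the median of all genes moved from -0.03 to 0.08. Of the other microtubule genes, 1 was lower and 2 were higher. The lower ones numbered 7 with DESeq2, 0 with library size only, 8 without a filter, 0 with at least 10 counts, 9 with the replicate block, 20 with the correction, 21 with the correction and the replicate block, 4 at an adjusted p under 0.1, 0 under 0.01 and between 0 and 22 with a library left out, and the higher ones 1 with at least 10 counts and 4 with the correction and the replicate block. The replicate number has no source but the labels, same-numbered libraries deviated together with a correlation of 0.137 across genes, and 2 pairs do not decide a pairing. The cause of these differences was not tested.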
